A study of Mus musculus with 4 samples.

Results

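The small proline-rich genes Sprr1a, Sprr2a1, Sprr2a2 and Sprr2a3 were followed in cells captured one by one from the corpus of the mouse stomach, where acid is made. These 4 genes, of 32227 listed in the files, were found by their symbols (ENSMUSG00000050359, ENSMUSG00000078664, ENSMUSG00000068893 and ENSMUSG00000074445), and another 11 listed genes carry an Sprr symbol. They were chosen by their levels in these libraries, which had already been seen, so the levels below are a description and carry no test. All mice were wild-type C57BL6/J aged 6 to 7 weeks. Untreated mice received PBS. Day 1 mice had been given 350 mg/kg of L635 once by mouth 1 day earlier, L635 being a compound toxic to the acid-secreting parietal cells. Day 3 mice with AREG had the same dose of L635 and also received AREG (amphiregulin, which binds the EGF receptor). Day 3 mice had L635 alone. Each group was 1 library of epithelial cells freed from corpus tissue with TrypLE and Y27632 and captured with PIPseq T20 3' chemistry. The sources used here give neither the number of mice per library nor the dose, route and schedule of AREG. With 1 library per group no difference has a replicate check, and group, animal and capture cannot be told apart.

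The untreated, day 1, AREG and day 3 libraries held 98893436, 56007532, 81286332 and 62591649 UMIs (counted RNA molecules), and 13876, 3743, 12912 and 7978 epithelial cells passed the filters. The median cell had 2507 to 3013.5 UMIs, and at most 3 cell barcodes were shared between any pair of libraries. Levels are CPM, the summed raw counts of a gene scaled to the total of the same cells. They count 3' molecules and are not divided by gene length. All ranges in parentheses are exact 95% intervals that cover counting error only. Of the defining markers of the squamous epithelium that lines the neighbouring forestomach, where Sprr genes are also made, 8 were followed. Their summed level was 2.45 CPM in untreated, 6.41 at day 1, 4.10 with AREG and 8.58 at day 3. Krt13 was at 3.41 CPM at day 1 against 0.195 in untreated cells, Krt15 at 0.827 against 0.260 and Dsg3 at 0.465 against 0.178. Krt4 was at 0.310 against 0 CPM and Krt14 at 0.233 against 0.227 CPM. Krt5 was at 0.0517 against 0.130 CPM, Krt6a at 0 against 0.0649 CPM, and the squamous regulator gene Trp63 at 1.11 against 1.40 CPM. The squamous sum was thus highest in the day 3 library, and it was higher at day 1 than in untreated cells. At day 3 it held 361 UMIs, of which Krt15 gave 139 in 26 cells and Krt5 gave 51 in 12 cells. The part of the squamous sum in the Sprr levels was not tested.

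Small proline-rich proteins are short, proline-rich chains that transglutaminases cross-link into the cornified envelope, the tough shell under the membrane of squamous keratinocytes. Their genes sit side by side in the epidermal differentiation complex, next to genes for S100 proteins, involucrin and filaggrin. Outside the skin they appear in wounded or stressed simple epithelia, and Sprr1a was described as a gene of regenerating nerve cells. SPRR2A is also known as an antibacterial protein secreted by the mouse intestine. AP-1, a dimer of FOS and JUN family proteins, is a known regulator of human SPRR promoters.

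The sequences just upstream of 3 of the genes are shown as a description, and their part in the levels was not tested. Each is the stretch from 250 to 51 bases before the start of the gene, from the RefSeq annotation of GRCm38.p6, read 5′ to 3′ on the strand of the gene. Capitals mark TGAGTCA, the AP-1 consensus, searched on both strands. The 3 stretches are Sprr1a (chr3:92485932-92486131, minus strand), Sprr2a1 (chr3:92215585-92215784, plus strand) and Sprr2b (chr3:92316455-92316654, plus strand), a relative that was far less abundant.
Sprr1a: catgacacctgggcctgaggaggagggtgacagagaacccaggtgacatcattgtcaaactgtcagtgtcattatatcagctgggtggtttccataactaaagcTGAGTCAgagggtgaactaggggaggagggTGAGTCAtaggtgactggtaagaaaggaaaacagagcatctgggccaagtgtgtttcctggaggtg
Sprr2a1: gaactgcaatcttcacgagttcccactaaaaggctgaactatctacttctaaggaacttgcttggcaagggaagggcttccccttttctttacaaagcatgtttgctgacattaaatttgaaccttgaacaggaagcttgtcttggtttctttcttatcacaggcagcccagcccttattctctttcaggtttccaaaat
Sprr2b: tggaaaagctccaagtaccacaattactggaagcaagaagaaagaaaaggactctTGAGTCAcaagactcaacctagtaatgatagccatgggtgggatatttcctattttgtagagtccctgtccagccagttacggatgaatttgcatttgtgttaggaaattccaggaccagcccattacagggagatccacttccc
Sprr1a holds TGAGTCA at 146 and at 116 bases before the start, and Sprr2b holds it at 195 bases before the start. In the full windows of 300 bases, 250 before to 50 after the start, 8 of 14 Sprr genes held the motif, against 5.20% of 32851 mouse windows. A second match, as in Sprr1a and Sprr2k, was present in 0.222% of all windows. Sprr2d, Sprr2e, Sprr2h, Sprr2i and Sprr2k held the motif and had at most 5 UMIs each in any library's epithelial cells. None of Sprr2a1, Sprr2a2 and Sprr2a3 held TGAGTCA, nor did Sprr1b, Sprr3 or Sprr4. The letters TTCNNNGAA, a STAT consensus, were present in 2 of the 14 Sprr windows, Sprr2a3 and Sprr2i, and in 8.30% of all windows. The Sprr2a3 match began 249 bases before the start, at the edge of its window. The windows of Sprr2a1 and Sprr2a2 are cut at an offset and do not cover that stretch, so those copies were not searched there. A match to such letters is a description of the sequence, and binding was not measured.

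Sprr2a1, Sprr2a2 and Sprr2a3 could not be separated with confidence, so their sum is used throughout. The windows of Sprr2a1 and Sprr2a2 are identical over all 300 bases, and that of Sprr2a3 is identical to both over 272 bases at an offset of 28. In the annotated transcripts (GENCODE M21) the last 600 bases, where a 3' method reads, are 100% identical between Sprr2a1 and Sprr2a2, and 98.7% identical between either and Sprr2a3. The annotated span of Sprr2a2 also covers 98.0% of that of Sprr2a1. How the counting treated reads that match more than 1 copy is not given in the sources used here.

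**Figure D1:**
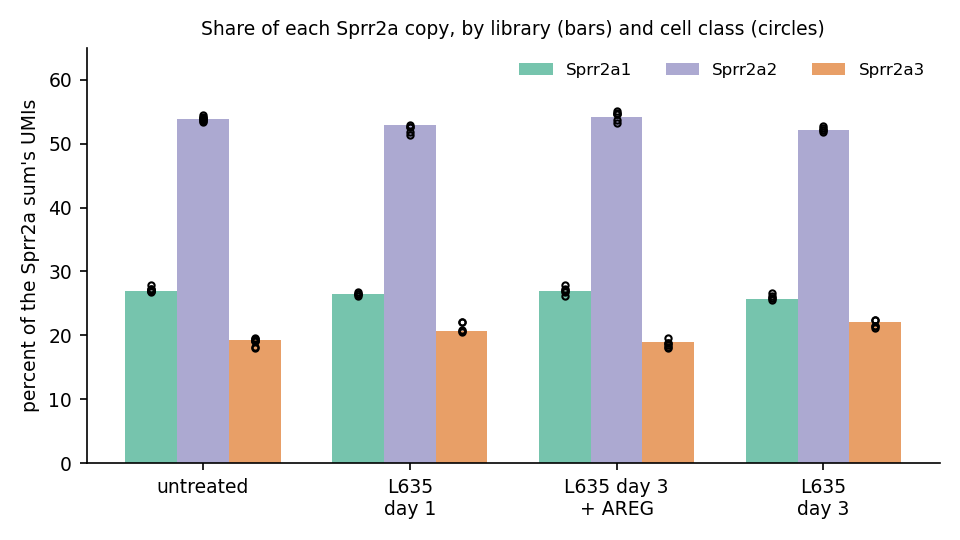
Share of each Sprr2a copy in the UMIs of the Sprr2a sum, in percent, for the 4 libraries. Bars are all epithelial cells of a library and open circles are its cell classes with at least 100 cells and at least 1000 UMIs. Sprr2a2 takes between 52.2% and 54.2% in each library, and the share of Sprr2a3 is lowest with AREG and highest at day 3.

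Sprr2a2 had close to the same multiple of the Sprr2a1 count in every library. The ratio Sprr2a2 to Sprr2a1 was 1.995 in untreated, 1.999 at day 1, 2.01 with AREG and 2.03 at day 3. Sprr2a3 differed more between libraries. It made up 19.3% of the sum in untreated, 20.6% at day 1, 18.9% with AREG and 22.1% at day 3 (22.0 to 22.3). In the classes with at least 100 cells and 1000 Sprr2a UMIs the share was at 18.0% to 19.5% in untreated, 20.6% to 22.1% at day 1, 18.1% to 19.5% with AREG and 21.2% to 22.4% at day 3. Near-empty barcodes, those with under 50 UMIs, which hold mostly free RNA, had shares of 19.5%, 20.8%, 20.3% and 22.8% in the same order. Smaller classes had wider intervals, as in day 3 chief-like cells at 23.0% (20.3 to 25.8). The ranges of the AREG and day 3 classes did not overlap, while those of untreated and AREG did. The part of sequencing or counting in this library difference was not tested.

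Sprr1a was scarce in every library but day 1. Its level was 484 CPM at day 1 (478 to 491, 18739 UMIs), against 5.92 CPM in untreated cells (5.33 to 6.56, 365 UMIs), an 81.8-fold difference and a log2 ratio of CPM + 1 of 6.13. That was rank 4 from the top among 20895 measured genes, those with at least 10 UMIs over both libraries. Among all genes by level Sprr1a stood at rank 256 at day 1 and at rank 7548 in untreated cells. At day 3 it was at 3.47 CPM (2.93 to 4.08, 146 UMIs), against 484 CPM at day 1, a log2 ratio of -6.76 and rank 2 from the bottom of 21053 genes. With AREG it was at 3.74 CPM (3.23 to 4.30, 194 UMIs), against 3.47 CPM at day 3, a log2 ratio of 0.084. The log2 ratio of the counts lay between -0.21 and 0.43, so a difference between AREG and day 3 was not detectable at this depth. Both day 3 libraries were below untreated, by log2 ratios of -0.55 with AREG and -0.63 without.

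The Sprr2a sum, by contrast, was among the most abundant RNAs of the untreated corpus. It reached 53327 CPM at day 1 (53255 to 53400), which is 5.33% of all epithelial UMIs, against 22086 CPM (22048 to 22123), or 2.21%, in untreated cells. This was a 2.41-fold difference and a log2 ratio of 1.27. Only Tff1, the trefoil peptide of surface mucus, had more UMIs than the sum at day 1, whereas 6 genes, among them Pgc (pepsinogen C), Tff1, Gkn1 and Gkn2, stood above it in untreated cells. At day 3 the sum was at 7835 CPM (7808 to 7862), against 53327 CPM at day 1, a log2 ratio of -2.77. This lay below the untreated level as well, with a log2 ratio of day 3 to untreated of -1.49. With AREG it was at 7473 CPM (7449 to 7496), against 7835 CPM at day 3, a log2 ratio of -0.068. The counting interval of that ratio, -0.075 to -0.062, leaves out 0, but the difference between 2 single captures has no measure of spread beside it. Relative to untreated, the sum with AREG had a log2 ratio of -1.56.

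Each of the 4 genes was thus past a log2 ratio of 1 in size at day 1 against untreated, in the direction that 13.4% of all measured genes took, while 1.95% were lower past it. The log2 ratios were 1.25 for Sprr2a1, 1.25 for Sprr2a2 and 1.37 for Sprr2a3 beside 6.13 for Sprr1a, and the median of all genes was 0.23. At day 3 against day 1 all 4 were lower past that size, as 3.8% of genes were, while 3.52% were higher. At day 3 against untreated the 3 Sprr2a copies were lower past it and Sprr1a was not, where 0.951% of genes were lower and 10.5% higher. With AREG against untreated the same 3 copies were lower past it, where 0.858% of genes were lower and 9.27% higher. Between AREG and day 3 none of the 4 passed it, and 0.051% of genes were higher and 0.232% lower. The contrasts share libraries, so these values are not independent. The call of Sprr2a1, Sprr2a2 and the sum at day 1 depended on the scaling. When the total left out mitochondrial genes, ribosomal protein genes, the members and the 20 genes most abundant besides these, the log2 ratio of the sum was 0.93, below the limit. It was 0.91 for Sprr2a1 and for Sprr2a2, 1.03 for Sprr2a3, still past the limit, and 5.92 for Sprr1a. That total also changed the share of higher genes among all past the limit to 64.5%, against 87.3% over the full total. For day 3 against untreated that share was 67.2% against 91.7%, and for AREG against untreated 62.9% against 91.5%. The median of all genes at day 1 against untreated was 0.09 with that total.

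**Figure D2:**
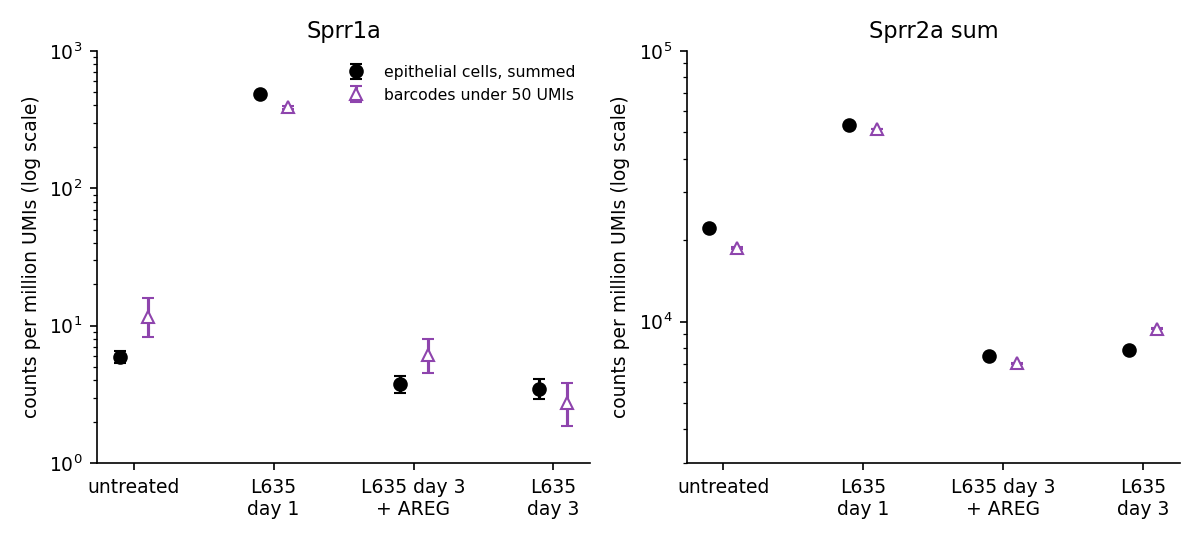
Levels of Sprr1a (left) and of the Sprr2a sum (right) in CPM on a log scale, for untreated, L635 day 1, L635 day 3 with AREG and L635 day 3. Black circles are summed epithelial cells, open triangles are barcodes under 50 UMIs, and bars are exact 95% counting intervals. Sprr1a stands at 484 CPM at day 1 and below 6 CPM elsewhere, while the Sprr2a sum spans 7473 to 53327 CPM.

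Free RNA outside cells held the same genes. In barcodes under 50 UMIs Sprr1a was at 387 CPM at day 1 and 11.6 CPM in untreated, and at 6.07 CPM with AREG and 2.72 CPM at day 3. The Sprr2a sum there was at 51395 CPM at day 1 and 18700 CPM in untreated, and at 7001 CPM with AREG and 9405 CPM at day 3. For the Sprr2a sum the order of the AREG and day 3 libraries was the same in these barcodes as in cells. Levels in a cell class are therefore read beside a class that should lack the gene. Cells that were not epithelial numbered 183 at day 1, with a median of 1578 UMIs, and held 24.5 CPM of Sprr1a and 2181 CPM of the Sprr2a sum. They had 11.2 Sprr1a UMIs per 1000 Sprr2a UMIs, beside 7.53 in the near-empty barcodes.

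Cells were grouped without the use of any Sprr gene. At day 1, 67.3% of epithelial cells (2519 cells) fell into 1 cluster that met the marker rule of no class and was led by S100a6, Msln, Lgals3 and Krt7. It is called the day 1 cluster here. It held 10 untreated, 23 AREG and 21 day 3 cells, none with a barcode of a day 1 cell, and a cluster that is almost wholly of 1 library may be that library rather than a cell type. The named classes at day 1 were small, with 311 parietal-like, 358 pit-like, 216 proliferating-like, 158 neck-like, 77 endocrine-like and 54 tuft-like cells, and their pit-like and proliferating-like cells were shallow, with medians of 752 and 809 UMIs. Most day 1 parietal-like cells, 217 of them, lay in cluster 26, whereas untreated ones lay in cluster 0. Most day 1 neck-like cells lay in cluster 5 and most untreated ones in cluster 4, and the largest share of day 1 pit-like cells lay in cluster 7 and of untreated ones in cluster 13.

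Parietal-like cells carried more Sprr1a than the day 1 cluster. These acid-secreting cells, recognised by the acid pump genes Atp4a and Atp4b, had 1102 CPM at day 1 (1064 to 1142, 3118 UMIs), against 2.46 CPM in untreated parietal-like cells (1.67 to 3.49, 31 UMIs). The log2 ratio was 8.32. They gave 16.6% of the day 1 Sprr1a UMIs from 7.31% of all UMIs. Of the 3118 UMIs, 3053 lay in cluster 26. The 36 day 1 cells in cluster 0, where most untreated parietal-like cells lay, were at 198 CPM, against 2.59 CPM in its untreated cells. Those 36 cells held only 21 Sprr1a UMIs, 11 of them in 1 cell. Their level was below the 387 CPM of near-empty barcodes at day 1, and the part of free RNA in it was not tested. In cluster 26 Sprr1a was at 1201 CPM together with 10295 CPM of Atp4a, and Gkn1, a product of pit cells, was at 2610 CPM there. The day 1 cluster was at 435 CPM (428 to 442) and gave 78.8% of the Sprr1a UMIs from 87.8% of all UMIs. Proliferating-like cells followed at 159 CPM against 9.63 CPM in untreated, then pit-like cells at 138 against 6.04 CPM and neck-like cells at 62.1 against 8.88 CPM. The intervals of proliferating-like (111 to 220) and pit-like cells (106 to 176) overlapped at day 1. Endocrine-like cells had 1742 CPM at day 1, but 37.1% of it came from 1 of 77 cells, without which the level was 1148 CPM. Tuft-like cells had 21.2 CPM (7.79 to 46.2) and lay within the interval of cells that were not epithelial (14.3 to 39.2).

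The ratio of the 2 products set parietal-like cells apart from free RNA. At day 1 there were 93.2 Sprr1a UMIs per 1000 Sprr2a UMIs in parietal-like and 86.3 in endocrine-like cells. There were 7.51 in the day 1 cluster, 3.08 in pit-like, 2.55 in proliferating-like and 1.79 in neck-like cells, and 7.53 in near-empty barcodes. After each cell was thinned to 500 UMIs, which left out no cell, 20.9% of day 1 parietal-like cells had an Sprr1a UMI (16.5 to 25.8). The share was 15.1% in the day 1 cluster, 8.80% in proliferating-like, 6.70% in pit-like and 4.43% in neck-like cells, and 2.19% in cells that were not epithelial (0.599 to 5.50). In all epithelial cells the thinned shares were 0.202% in untreated, 13.8% at day 1, 0.101% with AREG and 0.163% at day 3. Unthinned, they were 1.25%, 38.5%, 0.596% and 0.815%. The parietal-like value depended on how finely cells were clustered. At resolution 0.5 cluster 26 merged into the large day 1 cluster, and the 60 cells still called parietal-like had 125 CPM. At resolution 2 the level was 1074 CPM, and it was 1118 CPM without cluster 12, a parietal-like cluster rich in Gkn1. Proliferating-like cells drawn at resolution 2 had 31.1 CPM of Sprr1a at day 1, 147 of those 246 cells lying in a cluster led by Cym and Bpifb1. The endocrine-like class of 77 day 1 cells was not stable either. At resolution 0.5 the endocrine-like clusters held 25 and 10 day 1 cells. At resolution 2, 40 day 1 cells lay in an endocrine-like cluster of 43 led by Nupr1, Chga and Reg1. The endocrine-like Sprr1a level was not computed at those resolutions.

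**Figure D3:**
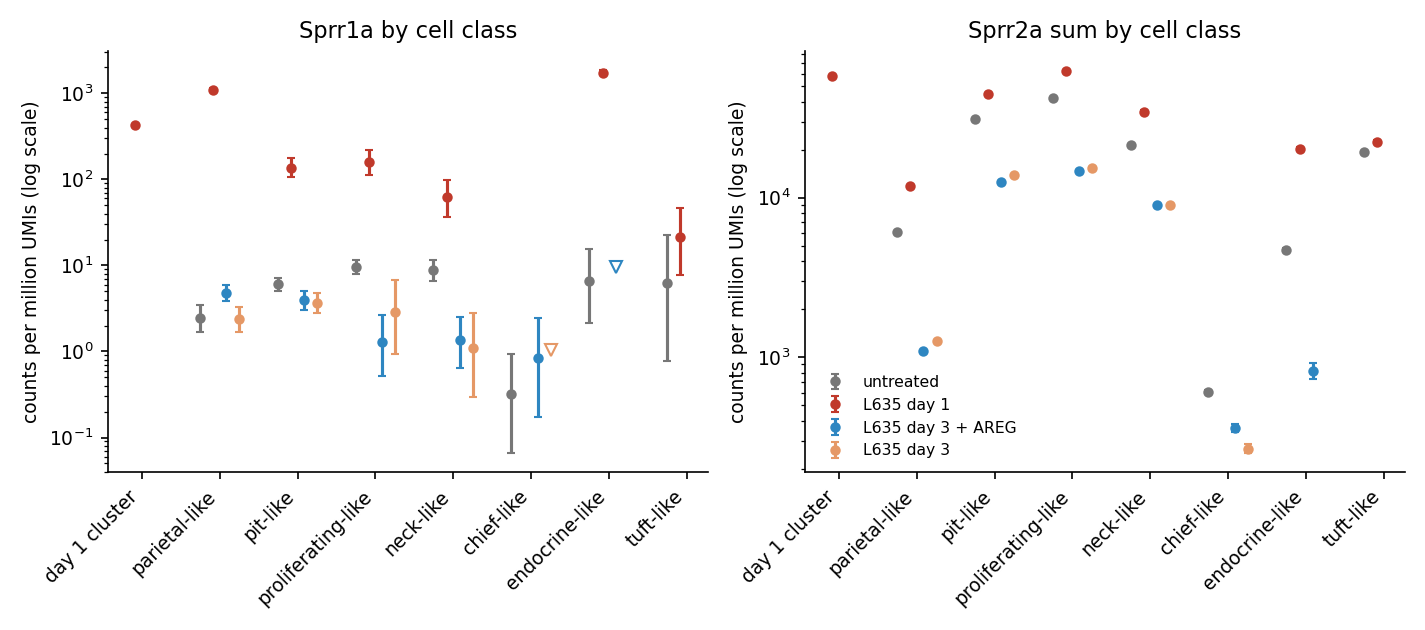
Levels of Sprr1a (left) and of the Sprr2a sum (right) in CPM on a log scale for each cell class with at least 50 cells in a library, coloured by library. Circles are summed cells, bars are exact 95% counting intervals, and open triangles mark the upper limit where no UMI was counted. Day 1 lies above the other libraries in each class shown for day 1 and another library. Without the highest cell of each library, tuft-like Sprr2a is lower at day 1, at 13378 CPM against 17300 in untreated. Tuft-like Sprr1a rests on 6 UMIs at day 1 and 2 in untreated. Chief-like cells are not shown for day 1, which held 11 of them. Sprr1a at day 1 is at 1102 CPM in parietal-like and 62.1 CPM in neck-like cells.

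The Sprr2a sum had another order of classes. In untreated cells it was highest in proliferating-like cells at 42064 CPM, then in pit-like (31206 CPM), neck-like (21320 CPM), tuft-like (19197 CPM), parietal-like (6116 CPM), endocrine-like (4709 CPM) and chief-like cells (606 CPM). The counting intervals of neighbours in this order did not overlap. At day 1 it was at 62162 CPM in proliferating-like, 57890 in the day 1 cluster, 44587 in pit-like and 34629 in neck-like cells. Next came tuft-like cells at 22469 CPM and endocrine-like cells at 20197 CPM, with 54.6% and 49.5% of it in 1 cell, and without that cell endocrine-like cells were at 11788 CPM. Parietal-like cells were at 11827 CPM, and the 11 chief-like cells at 1730 CPM (1486 to 2003). In the 4 named classes with at least 100 cells in both libraries the difference from untreated was smaller than in all epithelial cells. The log2 ratio of day 1 to untreated was 0.95 in parietal-like, 0.70 in neck-like, 0.56 in proliferating-like and 0.51 in pit-like cells, beside 1.27 overall. In smaller day 1 classes it was 2.10 in endocrine-like cells, or 1.62 without the highest cell of each library, and 1.51 in chief-like cells. In tuft-like cells it was 0.23, and -0.37 without the highest cells (13378 CPM at day 1 against 17300 in untreated), so its direction rested on 1 day 1 cell. The day 1 cluster, in which 10 untreated cells also lay, gave 95.3% of the day 1 UMIs of the sum. Proliferating-like cells drawn at resolution 2 were at 34714 CPM at day 1.

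Chief-like cells, which make pepsinogen, had the lowest Sprr2a level of the untreated classes. Their ratio of Sprr2a to Gkn1 UMIs was 0.355 in untreated, 0.239 with AREG and 0.174 at day 3. In near-empty barcodes it was 0.344 in untreated, 0.1998 with AREG and 0.185 at day 3. The ratio was 2.62 in untreated neck-like cells and 0.816 in proliferating-like cells, above near-empty barcodes, and 0.242, below near-empty barcodes, in pit-like cells, a source of Gkn1. At day 1 it was 3.89 in parietal-like and 9.55 in neck-like cells, against 1.56 in near-empty barcodes. An estimate of free RNA from the mean UMIs of barcodes ranked far below the cells gave chief-like cells 235 of their 606 CPM in untreated, 104 of 360 CPM with AREG and 52.2 of 267 CPM at day 3. The measured level was thus above that estimate in each of these libraries, and the part of free RNA in the rest was not tested. After thinning to 500 UMIs, 30.0% of untreated chief-like cells had an Sprr2a UMI, at a median of 5001 UMIs before thinning. The share was 99.7% of untreated pit-like cells, at a median of 2757 UMIs.

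At day 3 the Sprr2a sum was below untreated in each of the 5 named classes with at least 100 cells in both libraries. The log2 ratio of day 3 to untreated was -2.28 in parietal-like cells (1254 against 6116 CPM), -1.45 in proliferating-like, -1.25 in neck-like, -1.18 in chief-like and -1.17 in pit-like cells. AREG and day 3 were closer to each other. The log2 ratio of AREG to day 3 was -0.20 in parietal-like, -0.14 in pit-like, -0.062 in proliferating-like, -0.0027 in neck-like and 0.43 in chief-like cells. Sprr1a in the day 3 libraries rested on few cells. In parietal-like cells it was at 4.83 CPM with AREG (3.86 to 5.97, 85 UMIs) and at 2.38 CPM at day 3 (1.67 to 3.30, 36 UMIs). A single cell held 30 of the AREG UMIs and another held 25 of the day 3 UMIs. Without those cells the levels were 3.13 CPM with AREG and 0.729 CPM at day 3. In untreated neck-like cells 1 cell held 30 of 53 Sprr1a UMIs, and the level without it was 3.86 CPM. In all epithelial cells 24.0% of the day 3 Sprr1a UMIs came from 1 of the 21 cells that lay in the day 1 cluster. Those 21 cells were at 533 CPM with 35 of their 39 UMIs in that cell, the 23 such cells with AREG at 194 CPM and the 10 untreated ones at 983 CPM.

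Within the day 1 cluster the 2 genes were unevenly placed. At resolution 2 it divided mainly into 1275 pit-like cells, 1052 unnamed cells led by Msln, Krt7 and S100a10, and 136 cells led by Cym, Bpifb1, Spp1 and Dmbt1. The marker rule called this last group proliferating-like, as 10 proliferation markers were higher in its cluster and 1 was among the 50 leading genes. None was among the 10 leading genes, so the group is left unnamed here. Some other clusters without a marker of their class among their 10 leading genes kept their names. The Msln cells had 704 CPM of Sprr1a and held 83.9% of the Sprr1a UMIs of the cluster. The pit-like cells had 150 CPM and the Cym cells 25.8 CPM. The Sprr2a sum was at 66397 CPM in the Msln cells, 50663 CPM in the pit-like cells and 33282 CPM in the Cym cells. Median depth was alike, at 6276, 6110 and 6870.5 UMIs. Both genes thus had the same order over the 3 groups, with a wider range for Sprr1a.

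**Figure D4:**
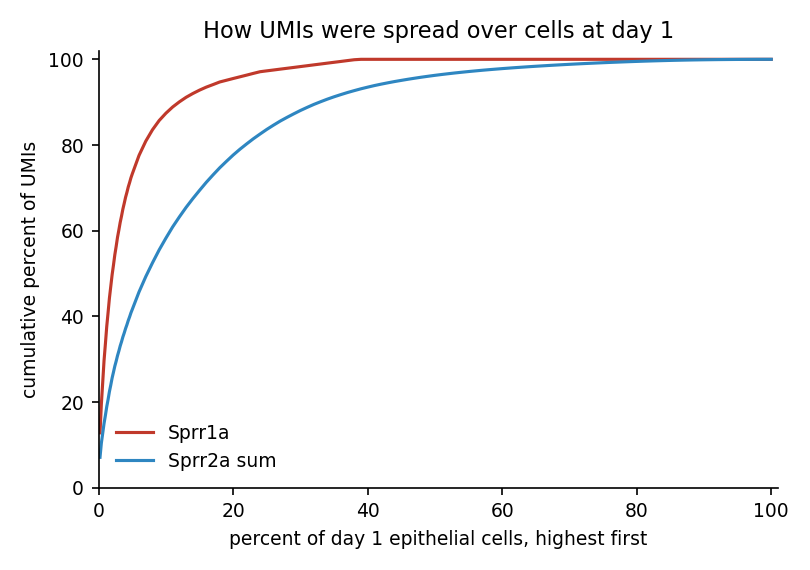
Cumulative percent of the Sprr1a and Sprr2a UMIs (vertical axis) against the percent of day 1 epithelial cells, ranked from the cell with the most UMIs of the gene (horizontal axis). The steeper Sprr1a curve reaches 87.5% of the UMIs at 10% of cells, where the Sprr2a sum has reached 58.4%.

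Sprr1a was concentrated in few cells. At day 1 the top 1% of epithelial cells (38 cells) held 34.1% of its UMIs, the top 10% held 87.5%, and the single highest cell had 868 UMIs, or 4.63%. For the Sprr2a sum the top 1% held 17.2% and the top 10% held 58.4%, and 99.7% of cells had a UMI. Depth differs between cells, so day 1 cells were also thinned to 2000 UMIs, which kept 2129 cells and left out 1614. Of these, 71.8% had no Sprr1a UMI, 12.02% had 1, 10.6% had 2 to 4 and 5.59% had 5 or more. The median count of Sprr2a UMIs was 94, 111, 127 and 75 in the same order. The cells richest in Sprr1a were thus lower in Sprr2a than the group with 2 to 4, and 34.5% of them were parietal-like, against 7.06% of cells with none.

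**Figure D5:**
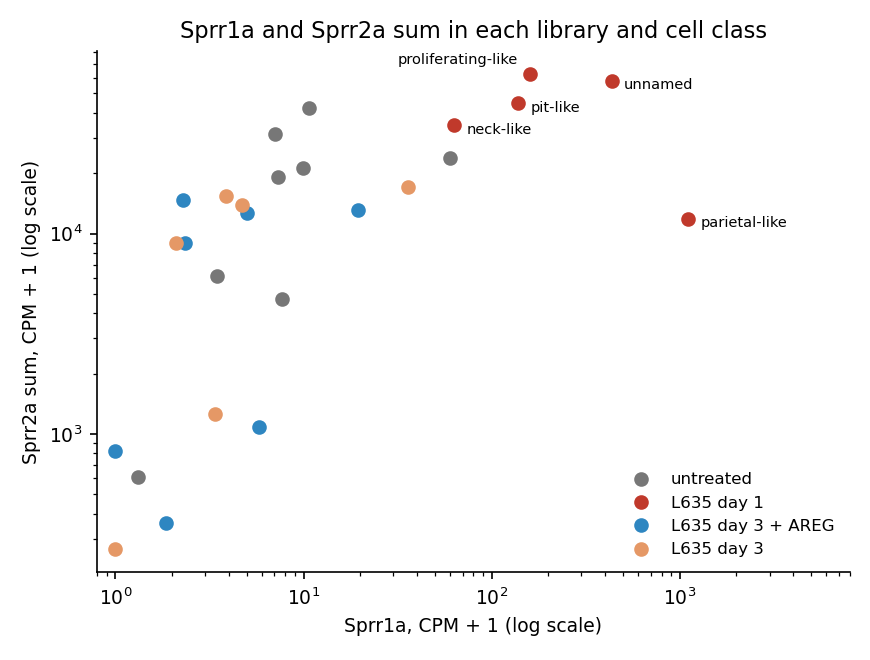
Sprr1a (horizontal axis) and Sprr2a sum (vertical axis), both as CPM + 1 on log scales, in the 26 combinations of library and epithelial class with at least 100 cells, the unnamed epithelial cells of a library being 1 class. Points are coloured by library and the 5 day 1 points are named. Day 1 parietal-like cells lie apart, with 1102 CPM of Sprr1a and 11827 CPM of Sprr2a.

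Across these 26 combinations, 5 of them from day 1, log2(CPM + 1) of Sprr1a and of the Sprr2a sum had a Pearson correlation of 0.65. Points of the same library share its depth and its free RNA, so this and the next values are descriptions without a p. The 10 genes whose pattern was most like Sprr1a, of 4618 with at least 50 CPM in some combination, were Plaur (0.84), Abi1, Msln, S100a6, Sfn, Areg, Lgals3, Clic3, Rbm3 and Osgin1 (0.74). Plaur, the receptor of the protease urokinase, was at 77.8 CPM at day 1 against 4.75 in untreated cells. Areg was at 81.0 CPM at day 1 against 7.15 in untreated cells. The 5 genes most like the Sprr2a sum were Anxa2 (0.96), Golm1, Anxa1, Rflnb and Pllp (0.94). Anxa2, the annexin that pairs with S100a10 at membranes, was at 386 CPM at day 1 and 60.2 CPM in untreated, and at 36.5 CPM with AREG and 31.0 CPM at day 3. Anxa1 was at 127 CPM at day 1 and 35.0 CPM in untreated, and at 21.2 CPM with AREG and 14.4 CPM at day 3. Like the Sprr2a sum, both were lower in the day 3 libraries than in untreated cells. They were picked for their likeness to the sum over these same libraries, so this shared order is not a separate observation.

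Some partners of small proline-rich proteins in the cornified envelope were higher at day 1. Of 21 envelope and cross-linking genes in the files, 12 were measured at day 1 against untreated, and 5 of them were higher past a log2 ratio of 1 and none lower, with a median of 0.74, where 13.4% of all genes were higher. The 5 were Ppl (periplakin, 11.1 CPM at day 1 against 1.43 in untreated cells), Evpl (envoplakin, 11.7 against 2.77), Pkp3 (plakophilin 3, 62.5 against 18.6), Dsp (desmoplakin, 160 against 65.9) and Ivl (involucrin). Ivl had 111 UMIs at day 1 and 0 in untreated, at least 59.0-fold higher against a floor of 3 counts. The cross-linking enzyme gene Tgm1 had 7 UMIs at day 1 and 2 in untreated cells, below the limit for measured genes, and Tgm2 was at 1.78 against 0.584 CPM. At day 3 against day 1, 3 of 13 measured genes of the list were lower past that size, where 3.8% of all genes were, Ivl, Ppl and Pkp3. Of the 8 squamous markers, 7 were measured at day 1 and 1 was higher, a share near that of all genes. This was Krt13, at 3.41 CPM against 0.195 in untreated cells.

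Neighbours of the Sprr genes in the same complex, the S100 genes, were higher more broadly. At day 1 against untreated 9 of 10 measured S100 genes were higher past a log2 ratio of 1, where 13.4% of all genes were, with a median of 1.99 beside 0.23 for all genes, and none was lower. S100a6, whose product binds calcium, was at 13891 CPM against 516 CPM. S100a14 was at 94.7 against 14.4 CPM and S100a4 at 17.01 against 0.324 CPM. At day 3 against day 1, 7 of the 10 were lower past that size, where 3.8% of all genes were, with a median of -2.33 beside 0.07 for all genes. AP-1 genes followed the same direction, with 8 of 10 higher at day 1, against 13.4% of all genes, and a median of 1.38. With the total that left out abundant genes, 9 of 10 S100 and 6 of 10 AP-1 genes were higher at day 1. So were 4 of 12 envelope genes and 5 of 14 gp130 and STAT3 genes, where 1664 of all 20895 genes were. Fosl1, which encodes the AP-1 protein FRA1, was at 10.96 CPM at day 1 against 0.746 in untreated cells, and Fos was at 820 against 315 CPM. Jun was at 199 against 158 CPM and did not pass the limit. Set against day 1, 4 of 10 AP-1 genes were lower at day 3, where 3.8% of all genes were, Fos, Fosb, Fosl1 and Maff.

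Genes of interleukin-6 family signalling through gp130 and STAT3 were higher for 6 of 14 at day 1, where 13.4% of all genes were, with a median of 0.83. Socs3, a feedback inhibitor of the pathway, was at 59.4 CPM against 15.3 in untreated cells, and Stat3 was at 52.0 against 20.3 CPM. At day 3 against day 1 Socs3 was lower, at 15.7 against 59.4 CPM, and Lifr, a receptor subunit gene, was higher, at 38.5 against 16.5 CPM. These were 1 lower and 1 higher of 14, where 3.8% of all genes were lower and 3.52% higher. Against untreated, 6 of 14 were still higher at day 3, with a median of 0.86, where 10.5% of all genes were. With AREG against untreated it was also 6 of 14, with a median of 0.77, where 9.27% of all genes were. Sprr1a and the Sprr2a sum were below untreated in both of these libraries. Other antimicrobial proteins of the gut did not share a direction. Of 7 measured at day 1, Wfdc2 was higher (242 against 53.4 CPM). Lypd8, which keeps flagellated bacteria from the colon surface, was lower (86.7 against 214 CPM), and the median of the 7 was -0.11. That is 1 higher and 1 lower, where 13.4% of all genes were higher and 1.95% lower. The antibacterial lectin gene Reg3g was at 1.16 CPM at day 1 against 0.584 in untreated cells. Lypd8, Reg3g and Pigr were higher past the limit at day 3 against day 1, and Wfdc2 was lower. These were 3 higher and 1 lower of 7, where 3.52% of all genes were higher and 3.8% lower. Between AREG and day 3, S100a14, Krt5 and Krt15 were the list members past the limit, each lower with AREG. They were 1 of 10 S100 and 2 of 7 squamous genes, where 0.232% of all genes were lower. The squamous genes rested on few cells. Krt5 had 51 UMIs in 12 cells at day 3 and 2 UMIs in 2 cells with AREG. Krt15 had 139 UMIs in 26 cells at day 3 and 39 UMIs in 38 cells with AREG.

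Other Sprr genes were at or near 0. Sprr2b was at 8.87 CPM at day 1 (343 UMIs) and 4.25 CPM in untreated (262 UMIs), and at 1.85 CPM with AREG and 0.999 CPM at day 3, so that, like the Sprr2a sum, it was highest at day 1 and lower in both day 3 libraries than in untreated cells. Sprr2f had 24 UMIs in day 1 epithelial cells and none in those of the other 3 libraries, at least 12.7-fold higher than untreated against a floor of 3 counts. Sprr3, a gene of the oesophagus and forestomach, had 10 UMIs with AREG and at most 1 elsewhere. Sprr1b and Sprr4 had no UMI in any library, and the other 6 genes had at most 5 UMIs in any library's epithelial cells. Reads of Sprr2 genes may be split between relatives of similar sequence, so these low counts are uncertain.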

How the data were processed

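RNA of mouse gastric corpus cells was measured in 4 PIPseq libraries, 1 per group, grouped by sample title. The authors deposited unfiltered raw UMI counts for each barcode, and the builds mm39 and GRCm39 are named per the submitters' processing notes. The sources used here do not name the aligner or counter, nor how reads matching several Sprr2a copies were treated. The members and gene lists were chosen with earlier results of these data known. Named genes were the members, all Sprr genes, the listed genes and the genes of most similar pattern.

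Barcodes with 500 or more UMIs, 200 or more genes and no more than 50% mitochondrial UMIs were taken as cells. Cells were clustered in scanpy 1.11.5 without Sprr genes (scale 10000, 2000 variable genes, 40 components, 15 neighbours, Leiden resolution 1) and named from fixed markers, with at least 3 higher in the cluster. An unnamed cluster counted as epithelial by its Epcam level. Scrublet marked at most 0.187% of cells of a library, was taken not to have worked, and no cell was removed.

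Sums over cells were turned into CPM, and log2 ratios were taken after adding 1 CPM, so those of low genes are understated. Intervals are exact Poisson for CPM, conditional binomial for ratios and Clopper-Pearson for shares, at 95%. A gene was measured where both libraries together had 10 or more UMIs, and those with a log2 ratio of at least 1 in size counted as past the limit. With 1 library per group no test was run. Functions were tested on simulated data. Alternatives are given in the closing section. Sequences are of GRCm38.p6, not the build of the files, and protein sequences were not used here.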

Additional observations from a re-analysis of the deposited data

Results flagged for a closer look

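Sprr1a and Sprr2a RNA was also present outside cells, in barcodes under 50 UMIs that no comparison uses as cells. There Sprr1a was at 387 CPM at day 1 and 11.6 CPM in untreated, and the Sprr2a sum was at 51395 CPM at day 1 and 18700 CPM in untreated. The part of this free RNA in the levels of single classes was not tested. Subtracting it left a log2 ratio of day 1 to untreated of 6.16 for Sprr1a and 1.27 for the Sprr2a sum.

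The Sprr2a sum differed in direction between classes when AREG was set against day 3. The log2 ratio was 0.43 in chief-like cells, and -0.20 in parietal-like, -0.14 in pit-like and -0.062 in proliferating-like cells, with counting intervals that leave out 0 in each. The difference between classes was not tested. In chief-like cells the ratio of Sprr2a to Gkn1 was 0.239 with AREG and 0.174 at day 3, beside 0.1998 and 0.185 in near-empty barcodes, and without the highest cell the levels were 299 CPM with AREG and 249.6 CPM at day 3.

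Sprr1a did so when AREG was set against untreated. The log2 ratio was 0.75 in parietal-like cells, and -2.07 in neck-like, -0.50 in pit-like and -2.22 in proliferating-like cells. That difference was not tested either. A single cell held 35.3% of the parietal-like UMIs with AREG, and another held 56.6% of those of untreated neck-like cells. Without the highest cell in each group the parietal-like levels were 3.13 CPM with AREG and 1.74 CPM in untreated.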

How the results depend on the processing

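Across 9 alternatives for each log2 ratio none turned its direction. For Sprr1a, day 1 against untreated was 4.96 with a pseudocount of 10 CPM and 5.92 without abundant genes in the total, and day 3 against day 1 was -5.20 with that pseudocount. AREG against day 3 ranged between 0.023 and 0.26 for Sprr1a. For the Sprr2a sum, counting error is so small that most alternatives moved it past that error. Day 1 against untreated was 1.25 with at least 1000 UMIs per cell, 1.23 with at most 20% mitochondrial UMIs, 1.28 with no mitochondrial limit, 0.93 without abundant genes, 1.25 over all cells, 1.27 without the highest cell, 1.27 after subtracting free RNA and 1.29 without the highest Scrublet scores. In the order of those settings that moved it, day 3 against day 1 was -2.79 (at least 1000 UMIs), -2.71 (at most 20%), -2.76 (abundant genes), -2.74 (all cells), -2.76 (highest cell) and -2.74 (Scrublet scores). AREG against day 3 was -0.058 with at least 1000 UMIs, -0.058 with at most 20% mitochondrial UMIs, -0.056 without abundant genes and -0.082 without the highest Scrublet scores. The cause was not tested. Leaving out Scrublet scores, cluster 12 or the highest cell of small classes, and rescaling single copies, were alternatives chosen after seeing the data. No paired analysis was possible because each group has 1 library, and no replicate could be left out. Depth limits Sprr1a in single classes of the untreated and both day 3 libraries, where counts were 0 to 121.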

Other observations

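Other unnamed epithelial clusters, apart from the day 1 cluster, had Sprr2a levels between those of neck-like and pit-like cells in the untreated and both day 3 libraries. They held 10766 CPM with AREG (412 cells), 13568 CPM at day 3 (301 cells) and 22420 CPM in untreated (223 cells). Sprr1a had 1 UMI in them with AREG, 1 at day 3 and 9 in untreated, 6 of the 9 in a single cell.

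Endocrine-like cells had 820 CPM of the Sprr2a sum with AREG (127 cells) and 4709 CPM in untreated (397 cells), a log2 ratio of -2.52. Their ratio of Sprr2a to Gkn1 UMIs was 0.140 with AREG and 0.711 in untreated, beside 0.1998 and 0.344 in near-empty barcodes.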
